A study of Mus musculus with 6 samples.

Results

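The killer lectin-like receptors studied here are the 7 genes Klrg1, Klrc1, Klrc2, Klrd1, Klrk1, Klre1 and Klrb1c. They were chosen by gene symbol, and all 7 had a row among the 19494 genes of the array table, each with 1 row only. The arrays measured polyadenylated RNA of regulatory T cells (Tregs), the CD4 T cells that restrain immune responses. The cells came from the tumour-bearing colonic lamina propria, the connective tissue under the gut epithelium. Both groups came from Foxp3-RFP x GPR15-GFP mice, in which a red reporter marks Foxp3, the defining Treg transcription factor, and a green reporter marks GPR15, a homing receptor of the colon. Colorectal cancer was induced in all animals with the carcinogen azoxymethane (AOM) together with dextran sulfate sodium (DSS), an agent that injures the colon lining. CD4-stained RFP+ cells were sorted by green fluorescence into a GPR15-GFP+ and a GPR15-GFP- group. Each group had 3 arrays, titled with the numbers 1, 5 and 6. The animals' age, and whether a number stands for 1 animal or a pool, are not stated in these sources.

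Killer lectin-like receptors are membrane proteins with a C-type lectin-like outer domain. Most are encoded side by side in the natural killer (NK) gene complex on mouse chromosome 6, and they are best known from NK cells, where inhibitory and activating members are weighed against each other. Inhibitory members carry a tyrosine motif (ITIM) in the cytoplasmic tail that recruits phosphatases, and activating members signal through adaptors such as DAP12 and DAP10. In Tregs, KLRG1 marks a differentiated effector subset that is common in the gut and in other tissues.

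The Klrc genes are near neighbours and belong to 1 subfamily, and the stretches before their transcription starts are shown because Klrc1 and Klrc2 both lay above 0 in all pairs below. Each stretch is the 250 bases before a start site in RefSeq (GRCm38.p6), on the minus strand, at chr6:129678974-129679223 for Klrc1, chr6:129660597-129660846 for Klrc2 and chr6:129643289-129643538 for Klrc3. Klrc3, which encodes NKG2E, is not 1 of the 7 and is printed for comparison. Capitals mark matches to the RUNX core TGTGGT, read on either strand (reverse complement ACCACA).
Klrc1: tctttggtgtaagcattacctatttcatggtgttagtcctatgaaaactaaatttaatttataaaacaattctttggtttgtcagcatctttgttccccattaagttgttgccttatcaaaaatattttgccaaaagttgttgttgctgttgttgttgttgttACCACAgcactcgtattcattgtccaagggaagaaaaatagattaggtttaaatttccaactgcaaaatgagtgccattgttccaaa
Klrc2: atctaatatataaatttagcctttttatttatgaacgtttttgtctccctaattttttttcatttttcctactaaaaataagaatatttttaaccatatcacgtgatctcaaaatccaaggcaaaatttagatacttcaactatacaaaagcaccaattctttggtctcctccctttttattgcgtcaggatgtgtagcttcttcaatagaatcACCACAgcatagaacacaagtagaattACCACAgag
Klrc3: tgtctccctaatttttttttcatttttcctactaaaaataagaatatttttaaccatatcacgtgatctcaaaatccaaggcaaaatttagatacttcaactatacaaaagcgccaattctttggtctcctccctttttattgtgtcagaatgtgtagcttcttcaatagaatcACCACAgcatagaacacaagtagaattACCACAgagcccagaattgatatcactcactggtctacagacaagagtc
A local alignment found 206 identical bases among 210 aligned positions (98.1%) between Klrc2 and Klrc3, whereas the best match of Klrc1 with either covered 12 bases. Klrc2 and Klrc3 each held 2 RUNX cores, which began 36 and 9 bases before the start of Klrc2 and 76 and 49 bases before that of Klrc3. RefSeq lists a second Klrc2 start, from which the cores lie 76 and 49 bases away as in Klrc3, with 246 of 250 aligned bases identical, so the offset comes from the choice of start. Klrc1 held 1, which began 87 bases before its start. The Klrc1 stretch lies inside the full RefSeq span of the gene. Of the 7 genes, 5 had an entry among the promoter stretches, and all 5 held a RUNX core in at least 1 stretch. Klrc2 and Klre1 had 2 overlapping stretches each, and the second of Klre1 held no RUNX core. Of all 32851 stretches of the same length, 14.0% held the core. That is a share of stretches and not of genes, so the counts are not directly comparable. None of the 3 printed stretches held the T-box motif TCACAC (12.3% of all stretches) or the ETS motif GGAAGT (19.7%) on either strand. Among the members not printed, Klrb1c held 1 ETS motif, and the second stretch of Klre1 held 1 T-box motif. These are matches of letters only. Klrg1 and Klrd1 had no entry.

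The values are log2 units of RMA, and every difference is the group labelled GPR15+ minus the group labelled GPR15-. Array medians lay between 6.49 and 6.64, and values varied least on the pair of arrays numbered 1 (SD 1.63 on both). For the numbers 5 and 6 the SD was 1.74 on both GPR15- arrays, against 1.87 and 1.82 on the GPR15+ arrays. Those GPR15+ arrays also had the lowest medians (6.49 and 6.51), so spread and group went together there. The gene behind the green reporter, Gpr15, lay lower in the samples labelled GPR15+ (-0.65 ± 0.22, SE), with groups that did not overlap. Where its probes lie relative to the reporter allele is not known here, so whether this value tests the labels is not known either, and each direction below rests on the labels alone. T cell markers were bright in both groups: all 7 were brighter than the median gene, with 5 above 0 and 2 below (median 0.14). Of these Cd3e and Cd4 differed by 0.19 and 0.14, and Thy1, whose groups did not overlap, by 0.46 ± 0.17 (SE, unadjusted limma p = 0.0288 across all genes, not an exact test). The pan-leukocyte gene Ptprc differed by 0.15. Of 6 measured Treg markers 5 were above that median. Their differences were above 0 for 2 and below for 4 (median -0.14), and Ikzf2, which encodes the Treg factor Helios, lay lower by the labels without overlap (-0.52 ± 0.19, SE), the side of Klrg1. The marker under the median level was Il2ra, which encodes the interleukin-2 receptor chain CD25, at the 20.0 percentile of mean level. Foxp3 was not analysed here. Precision is limited by having 3 arrays a group.

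No receptor gene passed limma's test after Benjamini-Hochberg adjustment over all 19494 genes, and neither did any other gene (0 called, or 0%). At an unadjusted p under 0.05, limma picked out 2 of the 7, Klrc1 on the higher side and Klrg1 on the lower. Over all genes the same rule took 544 higher (2.79%) and 670 lower (3.44%), or 6.23% in all. With the title number as a block the count over all genes was 2411 (12.4%), of which 1197 were higher (6.14%), and it took the same 2 of the 7. With median centring of the arrays the split over all genes was 777 higher and 397 lower, with fast cyclic loess 725 and 413, and with quantile normalization 595 and 467. The 7 genes had a median difference of 0.04, with 4 above 0 and 3 below. Over all genes the median was -0.06, with 7959 above 0 and 11535 below.

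**Figure D1:**
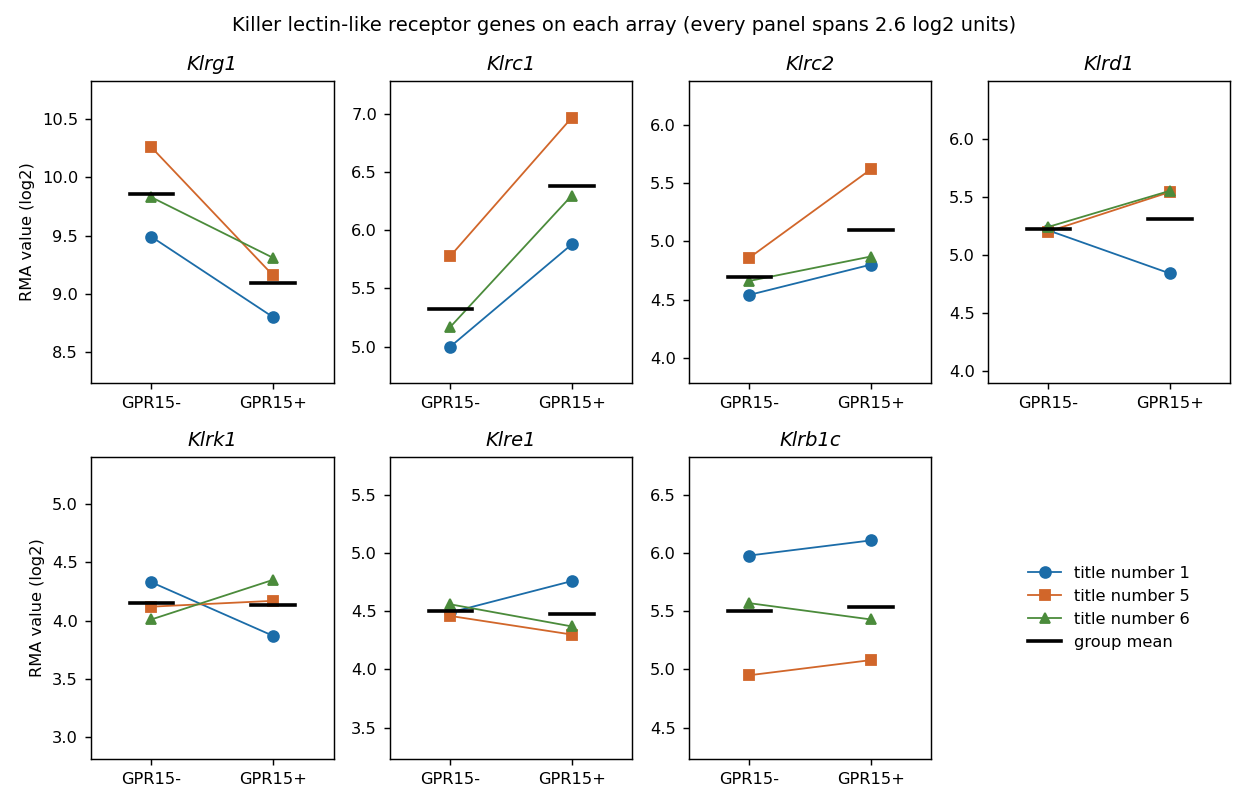
Values of the 7 receptor genes on each array (y axis, RMA log2 units, every panel 2.6 units tall) for the samples labelled GPR15- and GPR15+ (x axis), with lines joining samples of equal title number and black bars for group means. Klrg1 lies lower and Klrc1 higher in GPR15+ without overlap. Klrc1, Klrc2 and Klrb1c each rank the title numbers alike in both groups.

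Klrg1 encodes an inhibitory receptor with an ITIM that binds cadherins, among them E-cadherin on epithelial cells. In the samples labelled GPR15- its values were 9.49, 10.26 and 9.83 for the numbers 1, 5 and 6, and in those labelled GPR15+ they were 8.80, 9.16 and 9.31. The lowest GPR15- array (9.49) thus lay above the highest GPR15+ array (9.31). The means were 9.86 ± 0.39 (SD, n = 3) and 9.09 ± 0.26 (SD, n = 3). The difference was -0.77 ± 0.24 (SE), with a 95% interval from -1.33 to -0.21, or a level 1.70-fold higher in GPR15-. It did not pass over all genes (limma p = 0.0137, adjusted p = 0.773), and an exact permutation test (2-sided) gave 0.1, the smallest value that 3 arrays against 3 allow. Groups that did not overlap in this direction were found for 9.17% of all genes. The differences within the numbers 1, 5 and 6 were -0.68, -1.10 and -0.52, and 23.6% of all genes lay below 0 in all 3 pairs. Without GPR15- replicate 5, the brightest array for this gene, the difference was -0.57 (limma's p across all genes, not an exact test, was 0.0531). Klrg1 was the only bright gene of the 7, at the 93.9 percentile of mean level, while the other 6 lay at or below the 32.9 percentile.

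Klrc1 encodes NKG2A, which pairs with CD94 into an inhibitory receptor for the nonclassical class I molecule Qa-1. Its values were 5.00, 5.78 and 5.17 in the samples labelled GPR15- and 5.88, 6.97 and 6.30 in those labelled GPR15+, again for the numbers 1, 5 and 6. The groups did not overlap, but the highest GPR15- array (5.78) and the lowest GPR15+ array (5.88) were close. Within each group the array numbered 5 was the highest and that numbered 1 the lowest. Within each number the GPR15+ sample lay higher, by 0.88, 1.19 and 1.13, and 13.4% of all genes lay above 0 in all 3 pairs. The means were 5.32 ± 0.41 (SD, n = 3) and 6.38 ± 0.55 (SD, n = 3), and the difference was 1.07 ± 0.32 (SE), with a 95% interval from 0.33 to 1.80, or 2.09-fold. This did not pass over all genes either (limma p = 0.0105, adjusted p = 0.773; exact permutation p = 0.1, 2-sided, the smallest possible). Groups that did not overlap in this direction made up 4.12% of all genes. With array weights, whose estimation stopped before convergence, limma called Klrc1 and Klrg1 along with 2174 genes in all (adjusted p = 0.031 and 0.0396), and with weights from another method it called neither.

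Klrd1 encodes CD94, the partner that NKG2A, NKG2C and NKG2E all need to reach the surface. It showed no difference of the size seen for Klrc1. Its values were 5.21, 5.20 and 5.24 in GPR15- and 4.84, 5.54 and 5.55 in GPR15+. The GPR15- arrays lay within a few hundredths of each other, and the GPR15+ arrays lay on either side of them. The difference was 0.09 ± 0.22 (SE), with a 95% interval from -0.42 to 0.60 (limma adjusted p = 0.936). Within the numbers it was -0.37, 0.34 and 0.30. Such mixed signs over the 3 pairs were found for 63% of all genes and for 4 of the 7 receptor genes.

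Klrc2 encodes NKG2C, the activating counterpart of NKG2A, which signals through DAP12. Its values were 4.54, 4.86 and 4.66 in GPR15- and 4.80, 5.62 and 4.87 in GPR15+. The groups overlapped, since the array of GPR15- numbered 5 lay above that of GPR15+ numbered 1. The difference was 0.41 ± 0.25 (SE), with a 95% interval from -0.16 to 0.99 (limma adjusted p = 0.773), and it was above 0 in all pairs, at 0.26, 0.77 and 0.20. Most of it came from the array of GPR15+ numbered 5, without which the difference was 0.15. Klrc3, the third gene of this subfamily, behaved alike in that respect. Its values were 4.74, 4.53 and 4.68 in GPR15- and 4.58, 5.93 and 5.25 in GPR15+, a difference of 0.60 ± 0.32 (SE). Klrc1, Klrc2 and Klrc3 are close paralogs, and how far their probes tell them apart was not tested.

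**Figure D2:**
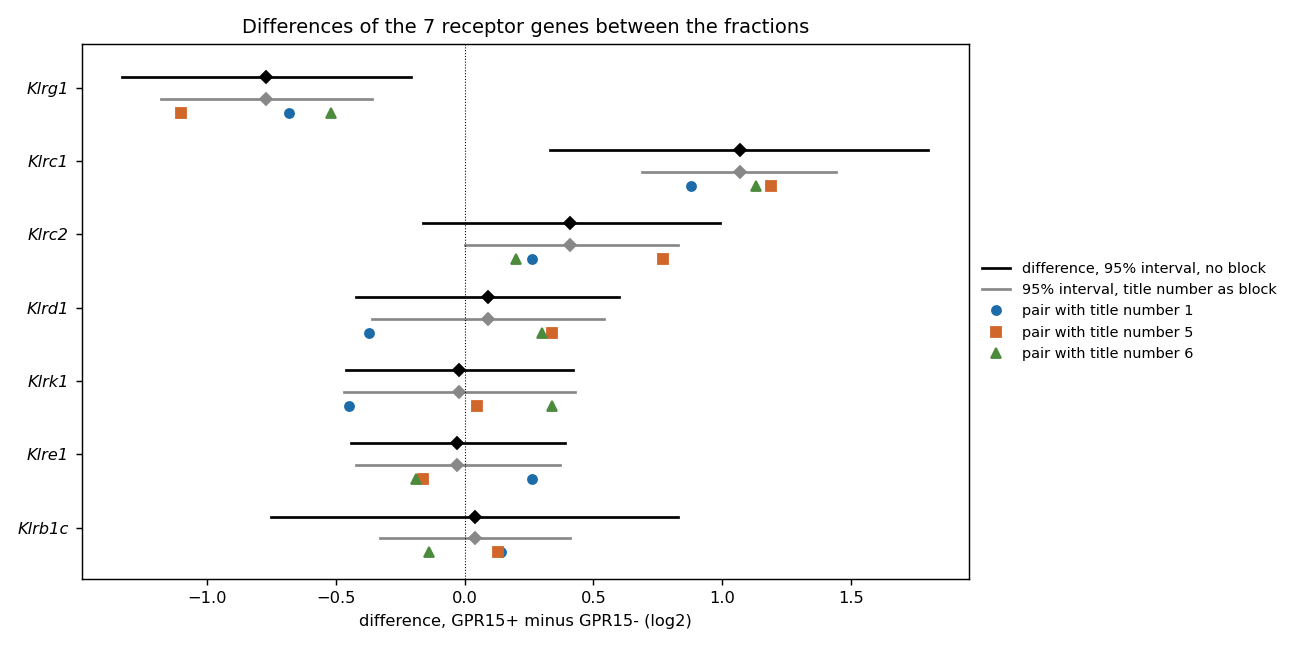
Difference between the samples labelled GPR15+ and GPR15- (x axis, log2 units) for each of the 7 receptor genes, with limma's 95% interval without a block (black) and with title number as a block (grey), and the 3 pair differences as coloured points. The intervals of Klrg1 (-1.33 to -0.21) and Klrc1 (0.33 to 1.80) without a block lie on opposite sides of 0, and those of the other 5 genes include it.

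Klrk1 encodes NKG2D, an activating receptor for stress-induced ligands that signals through DAP10. Its values were 4.33, 4.12 and 4.01 in GPR15- and 3.87, 4.17 and 4.35 in GPR15+. The groups overlapped over their whole range, the difference was -0.02 ± 0.19 (SE), and its 95% interval ran from -0.46 to 0.42 (limma adjusted p = 0.986). Klre1 encodes a receptor that pairs with KLRI1 or KLRI2. Its values were 4.49, 4.46 and 4.56 in GPR15- and 4.76, 4.30 and 4.37 in GPR15+, with a difference of -0.03 ± 0.18 (SE) and a 95% interval from -0.44 to 0.39 (limma adjusted p = 0.982). Both genes were among the dimmest 10% of all genes, ranked by mean level (percentiles 5.39 and 9.49). Without detection calls, values at this level cannot be told from background, and the intervals hold for the array values only.

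Klrb1c encodes NK1.1, an activating receptor that defines NK cells in C57BL/6 mice and pairs with the Fc receptor gamma chain. Its values were 5.98, 4.95 and 5.57 in GPR15- and 6.11, 5.08 and 5.43 in GPR15+. In both groups the array numbered 1 was the highest and that numbered 5 the lowest, and samples of equal number differed by 0.14, 0.13 and -0.14 only. The difference between the groups was 0.04 ± 0.34 (SE), with a 95% interval from -0.75 to 0.83 (limma adjusted p = 0.984). A limma F-test of the title number beside the group, chosen after these values were seen, gave Klrb1c the lowest p of the 7 (0.0029, adjusted p = 0.0776) and Klrc1 the next (0.00482, adjusted p = 0.0963). After adjustment it called none of the 7 and 354 of all genes (1.82%), and unadjusted p was under 0.05 for 19.8% of all genes.

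For the 4 receptor genes whose values spanned at least 1 log2 unit, the genes nearest in pattern were sought by the root mean square (RMS) difference of the 6 values after each gene was centred on its own mean. Nearest to Klrg1 were Susd2 (RMS 0.102), Cstad (0.126) and Slc7a14 (0.136). Nearest to Klrc1 were the cofilin phosphatase gene Ssh2 (RMS 0.160), Il10, which encodes an immunosuppressive cytokine of effector Tregs (0.168), and Zfp119a (0.189). Il10 itself measured 8.55, 9.26 and 8.95 in GPR15- and 9.15, 10.38 and 9.61 in GPR15+. Its array numbered 5 was the highest in each group, as for Klrc1, and its pair differences were 0.59, 1.11 and 0.66. With quantile normalization and loess the RMS of Il10 to Klrc1 was wider, at 0.301 and 0.334. Nearest to Klrc2 were Metrnl (RMS 0.0544), Tmem87a (0.0613) and Fbxo25 (0.0680), and nearest to Klrb1c were Mc2r (0.0643), Lhpp (0.0668) and Septin3 (0.0850). Each likeness rests on 6 arrays that also share their overall spread, and with 19494 genes to choose from, near patterns are always found.

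**Figure D3:**
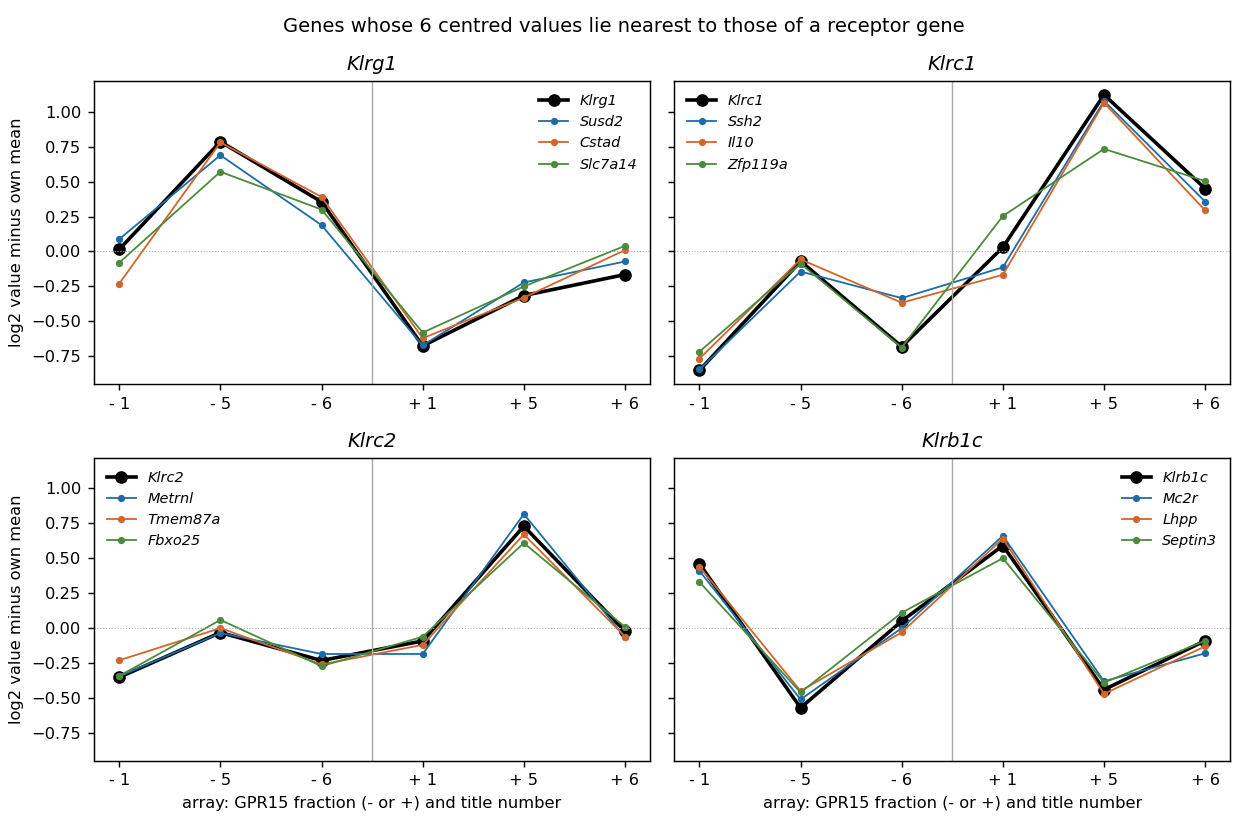
Log2 values of Klrg1, Klrc1, Klrc2 and Klrb1c (black) and of the 3 genes nearest to each (coloured), centred on each gene's own mean (y axis), over the 6 arrays (x axis: GPR15 group and title number). Klrc1 and Il10 share the array numbered 5 as the highest of each group, and Klrb1c follows the title number in both groups.

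Other lectin-like receptors of the NK gene complex were represented by 18 measured genes of a list of 21. Of these 5 lay above 0 and 13 below, with a median of -0.13, and none passed over all genes (lowest limma adjusted p 0.773). At an unadjusted p under 0.05 there was 1, Klrb1f, which encodes NKR-P1F, a receptor for Clr proteins. Klrb1f measured 5.97, 5.35 and 5.59 in GPR15- and 6.32, 7.58 and 6.05 in GPR15+. The groups did not overlap, but the difference of 1.01 ± 0.39 (SE) was made mostly by the number 5, where it was 2.23 against 0.34 and 0.46. Without GPR15+ replicate 5 it was 0.54. Of the 18 genes, 9 were among the dimmest 10%, most of the Ly49 (Klra) receptors among them.

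Adaptors and activating signalling genes of these receptors numbered 11, of which 7 lay above 0 and 4 below (median 0.20). None passed, and 1 had an unadjusted p under 0.05. That gene was Fcer1g, the Fc receptor gamma chain used by NK1.1, at 5.93, 5.44 and 5.39 in GPR15- and 5.35, 5.04 and 4.87 in GPR15+ (difference -0.50 ± 0.22, SE). The DAP12 gene Tyrobp differed by -0.34 ± 0.30 (SE), and the DAP10 gene Hcst, a bright gene in these cells, by -0.27 ± 0.18 (SE). On the other side lay Vav1 (0.72 ± 0.58, SE), a nucleotide exchange factor, Grb2 (0.49 ± 0.27, SE), an adaptor that DAP10 recruits, and Cd247, the T cell receptor zeta chain (0.32 ± 0.17, SE). Without GPR15- replicate 1 Vav1 and Grb2 differed by 0.22 and 0.21, and Fcer1g by -0.33. The 3 ITIM phosphatase genes had differences from -0.14 to 0.12, none with an unadjusted p under 0.05.

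Among the ligands, 12 of 18 listed genes were measured, 8 above 0 and 4 below (median 0.17), and 0 had an unadjusted p under 0.05 in limma. H2-T23, which encodes the Qa-1 ligand of NKG2A, lay at 8.68, 9.17 and 9.38 in GPR15- and at 9.15, 9.37 and 9.40 in GPR15+. These ranges overlapped, and the difference was 0.23 ± 0.22 (SE), or 0.03 without GPR15- replicate 1. Ulbp1, which encodes the NKG2D ligand MULT1, differed by 0.66 ± 0.37 (SE), with 1 low array, GPR15- numbered 1 (5.08 against 6.25 to 6.87 on the other 5). The KLRG1 ligand genes Cdh1 (E-cadherin) and Cdh2 (N-cadherin) differed by -0.09 ± 0.22 (SE) and -0.46 ± 0.22 (SE), and the Clr genes Clec2f and Clec2i by 0.36 ± 0.17 (SE) and 0.56 ± 0.32 (SE).

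Transcription factors known to control these receptors in NK and effector T cells gave 11 measured genes of 12, 5 above 0 and 6 below (median -0.12). One of them, Tox, had an unadjusted p under 0.05 and groups that did not overlap, at 12.06, 12.37 and 12.09 in GPR15- and 11.33, 11.70 and 11.60 in GPR15+ (difference -0.63 ± 0.18, SE, limma adjusted p = 0.773). Its 3 pair differences were close, at -0.73, -0.67 and -0.49. Tbx21, which encodes T-bet, differed by 0.00 ± 0.20 (SE) and Eomes by -0.25 ± 0.18 (SE). Runx3, a factor that binds the RUNX core, was bright in both groups (11.17 ± 0.04 and 11.00 ± 0.24, SD, n = 3) and differed by -0.16 ± 0.18 (SE).

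Genes of effector Tregs of tissues, the cells in which KLRG1 is usually found, did not lie on the side of Klrg1 as a group. Of 15 measured genes 8 lay above 0 and 7 below (median 0.09). At an unadjusted p under 0.05 in limma there were 4 higher and 1 lower, and none passed over all genes. Over all genes the shares were 2.79% higher and 3.44% lower. This list was chosen with earlier results of these data known, so its counts are a description only. The checkpoint receptor gene Lag3 was the clearest, at 6.48, 6.33 and 6.69 in GPR15- and 7.25, 7.60 and 7.86 in GPR15+ (difference 1.07 ± 0.21, SE, limma p = 9.29e-04, adjusted p = 0.773, exact permutation p = 0.1). All of its GPR15+ arrays lay above all of its GPR15- arrays, as for 4.12% of all genes. Il10 (0.79 ± 0.33, SE) and the granzyme gene Gzmb (0.47 ± 0.18, SE) lay on the same side, as did Irf4, which encodes a transcription factor of effector Tregs (0.45 ± 0.19, SE). Without GPR15+ replicate 5 Il10 differed by 0.46. The chemokine receptor gene Ccr8, a marker of tumour Tregs, lay on the side of Klrg1 at -0.70 ± 0.28 (SE), with values of 10.13, 10.51 and 10.45 against 9.05, 10.03 and 9.92. Without GPR15+ replicate 1 it differed by -0.39. Tnfrsf9 (-0.49), Cd44 (-0.45) and Pdcd1 (-0.42) also lay on the side of Klrg1, none with an unadjusted p under 0.05 in limma.

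**Figure D4:**
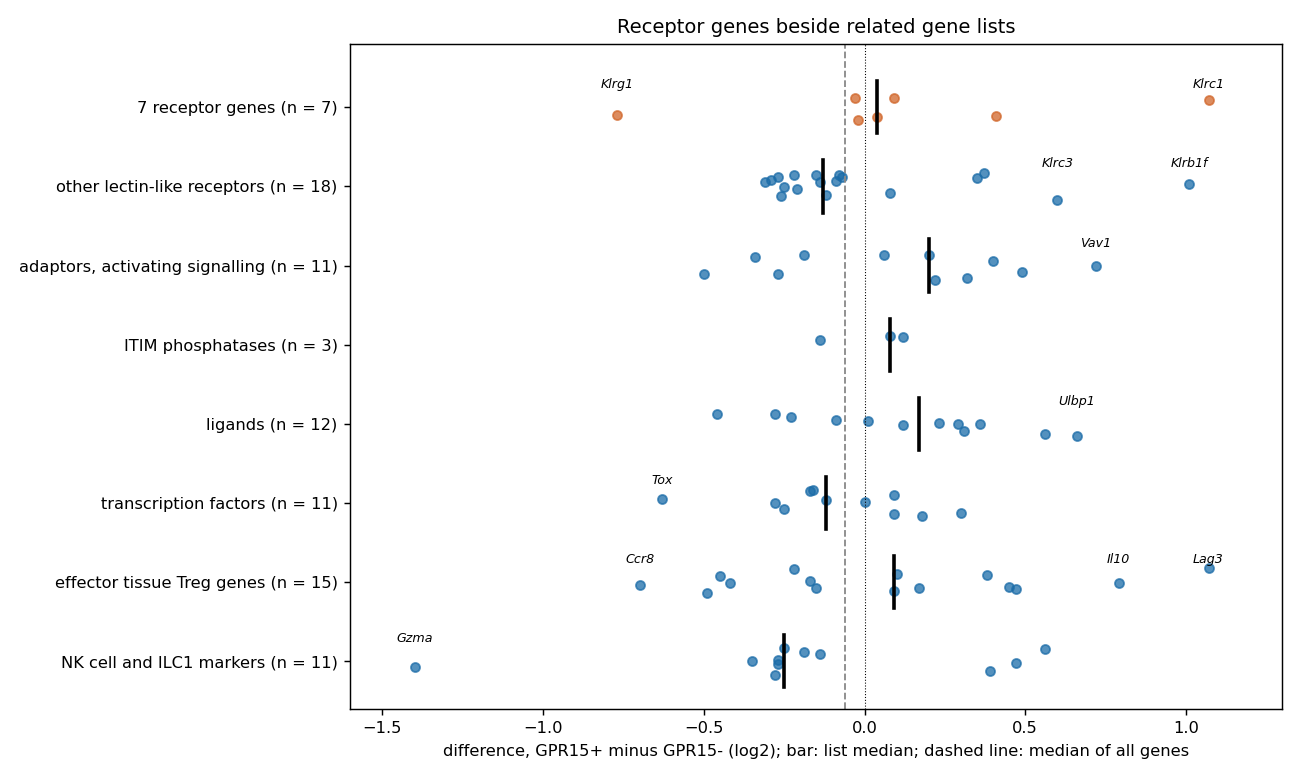
Differences between the samples labelled GPR15+ and GPR15- (x axis, log2 units) of the 7 receptor genes (orange) and of the genes of 7 related lists (blue), 1 point a gene, with black bars for list medians, a dashed line for the median of all genes (-0.06) and names for differences of at least 0.6 in size. Klrg1 (-0.77) and Klrc1 (1.07) stand on opposite sides, with Ccr8 and Tox on the lower side and Lag3 and Klrb1f on the higher. The lowest point is Gzma (-1.40), among the NK cell and ILC1 markers.

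Because these receptors are typical of NK cells, markers of NK cells and type 1 innate lymphoid cells were read beside them. Of 11 measured markers 3 lay above 0 and 8 below (median -0.25), and their mean level ran from 7.18 to 7.36 in GPR15- and from 7.07 to 7.12 in GPR15+. The NK cell receptor gene Ncr1 measured 5.98, 5.05 and 4.99 in GPR15- and 5.33, 4.68 and 4.97 in GPR15+. Ncr1 and Eomes were dim (percentiles 20.0 and 26.3), and neither lay higher in GPR15+ (-0.35 ± 0.30 and -0.25 ± 0.18, SE). Without GPR15- replicate 1 Ncr1 differed by -0.03, and without GPR15+ replicate 5 Eomes differed by -0.15. Cytotoxic genes lay on either side, Gzma at -1.40 ± 0.37 (SE), Gzmb at 0.47 and the perforin gene Prf1 at 0.39 ± 0.22 (SE). The highest difference among these markers was that of Nkg7, at 0.56 ± 0.37 (SE). It was made mostly by the number 5, where it was 1.63 against -0.04 and 0.10. Mean levels of myeloid markers ran from 5.77 to 5.99 in GPR15- and from 5.39 to 6.01 in GPR15+, with all 7 measured markers below 0, and those of epithelial markers from 6.74 to 6.83 and from 6.38 to 6.87. Epithelial markers were above 0 for 2 and below for 6 (median -0.18), and the microvillus gene Vil1 differed by -0.59 ± 0.21 (SE), with groups that did not overlap. Markers of γδ T and other innate lymphoid cells, 3 measured of 6, were all below 0 (median -0.38), at mean levels from 8.40 to 8.89 in GPR15- and from 7.85 to 8.24 in GPR15+. Kit, a receptor of mast cells and innate lymphoid cells, measured 9.65, 11.74 and 11.58 in GPR15- and 8.53, 10.43 and 10.42 in GPR15+. Its groups overlapped, but its pair differences were alike, at -1.12, -1.30 and -1.16 (mean -1.19 ± 0.68, SE, or ± 0.15 with the title number as a block). Without GPR15- replicate 1 Kit differed by -1.86, and without GPR15+ replicate 1 by -0.56. Of 4 measured markers of B and plasma cells 3 were below 0 (median -0.48), at mean levels from 5.54 to 6.17 and from 5.27 to 5.69. The plasma cell genes Jchain and Mzb1 differed by -1.13 ± 0.55 (SE) and -0.59 ± 0.20 (SE), and the B cell gene Ms4a1 by 0.13. Without GPR15- replicate 5 Jchain differed by -0.71, and without GPR15- replicate 6 by -1.84. Both CD8 T cell markers were below 0 (median -0.10). None of these marker genes passed over all genes in limma (lowest adjusted p 0.773). Most genes of the arrays also lay below 0, with 7959 above and 11535 below. List medians were taken in the deposited scaling only. There the medians of these 6 lists of other cell types all lay below that of all genes (-0.06), the side of Klrg1. So did those of Treg markers (-0.14), other lectin-like receptors (-0.13) and transcription factors (-0.12), so this was not particular to other cell types. Medians of T cell markers, adaptors, ITIM phosphatases, ligands and effector Treg genes lay above it. Without the 40% dimmest genes the median of all genes was -0.02, and lists were not matched for brightness. The part of other cell types in the differences of Klrg1 and Klrc1 was not tested. In sorted bulk samples, fewer cells that express a gene and less RNA per cell cannot be told apart.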

How the data were processed

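RNA of 6 sorted Treg samples, 3 a group by title, was hybridised to 1-colour Affymetrix arrays. The authors deposited log2 values per probe set made with RMA, per the submitters' processing notes. RMA usually corrects background, quantile-normalizes and summarises probes. Its settings and version, array annotation and build are not given in the sources used here. The deposited values do not share a common distribution over the 6 arrays (SD from 1.63 to 1.87). Of 22142 rows, 19527 had 1 gene symbol and 2615 none. For the 33 genes with several rows the brightest was kept, which left 19494 genes. Groups were compared with limma 3.58.1 in R 4.3.3 (lmFit, eBayes, no block), p-values adjusted by Benjamini-Hochberg across the 19494 genes, and calls at 0.05; the fit was tested on simulated data. RMA compresses differences of dim rows. Nothing says that the samples came from separate animals, so p-values measure the spread between these samples, which may be technical.

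Equal title numbers were taken as pairs by their titles. Deviations from the group means correlated at 0.567, 0.381 and 0.319 for the numbers 1, 5 and 6. GPR15- number 6 with GPR15+ number 5 correlated at 0.315, and GPR15- number 5 with GPR15+ number 6 at 0.213. With so few arrays a group these correlations depend on each other, and they hardly tell the numbers 5 and 6 apart. The arrays numbered 1 also had the narrowest spread (SD 1.63), and its part in their correlation was not tested.

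The members and lists were chosen with earlier results of these data known. The text names the 7 members, checks of the labels, up to 4 genes a list by smallest p, and 3 genes nearest to each member that spans 1 log2 unit. Tyrobp, Vav1, H2-T23, Cdh1, Tbx21, Runx3, Ncr1, Irf4, Tnfrsf9, Cd44 and Pdcd1 fall outside that rule and were chosen with their values in view. Other settings tried were the title number as a block, other scalings, an intensity trend, array weights, a filter on dim genes, the mean of a gene's rows, and leaving out arrays.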

Additional observations from a re-analysis of the deposited data

Results flagged for a closer look

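Of the 7 receptor genes, 4 had differences of opposite sign between title numbers, as did 63% of all genes. With 1 sample per group and number, the difference between numbers was not tested. The differences of Klrk1 lay 0.80 log2 units apart, from -0.45 for number 1 to 0.34 for number 6. Those of Klrd1 lay 0.71 apart, with number 1 below 0 and the numbers 5 and 6 above. Those of Klre1 lay 0.45 apart, from 0.26 for number 1 to -0.19 for number 6, and those of Klrb1c 0.28 apart, from 0.14 to -0.14.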

How the results depend on the processing

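Limma called 0 genes in the reported fit, 2174 with array weights that stopped before convergence, 2 with gene-by-gene weights and 22 with the replicate block without both arrays numbered 1, the last 2 settings chosen after seeing the data. With the first weights 2 of the 7 receptor genes were called, and under every other alternative 0. At an unadjusted p under 0.05 the count of 2 was 1 without the 40% dimmest genes, a filter that keeps only Klrg1. It was 3 with array weights, which added Klrd1 beside 6534 of all genes, and 3 with the replicate block without both arrays numbered 1, which added Klrc2 beside 4382. With 1 array left out it was 1 to 2, and all genes called were 0 throughout, but genes at that unadjusted p ran from 668 to 4351, the highest without GPR15+ replicate 1, against 1214 with all arrays. The replicate block changed no call (adjusted p = 0.27 for Klrg1 and 0.176 for Klrc1). With median centring, quantile normalization and loess Klrg1 differed by -0.70, -0.89 and -0.85, and Klrc1 by 1.13, 1.13 and 1.20. With 1 array left out, Klrg1 differed by -0.95 to -0.57 and Klrc1 by 0.77 to 1.32, and neither changed sign under any alternative. Adjusted p ran from 0.0396 to 1 for Klrg1 and from 0.031 to 1 for Klrc1.

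Genes near 0 changed sign. Klrk1 differed by 0.05, 0.08 and 0.06 with median centring, quantile normalization and loess, by 0.23 and 0.17 with the weights, by 0.20 without both arrays numbered 1 (with the block or not), and by -0.13 to 0.11 with 1 array left out. Klre1 differed by 0.04, 0.08 and 0.07 under the same scalings and by -0.17 to 0.06 with 1 array left out, Klrb1c by -0.01 with gene-by-gene weights or without both arrays numbered 1 and by -0.25 to 0.28, and Klrd1 by -0.03 to 0.32. Tbx21 differed by -0.24 and -0.16 with the weights, by -0.11 without both arrays numbered 1 and by -0.13 to 0.16 with 1 left out. Cd4 differed by -0.13, -0.04 and -0.07 in that order and by -0.14 to 0.30, Cdh1 by 0.05 with the first weights and by -0.20 to 0.14, and Ptprc by -0.05 to 0.28. Leaving out 1 array moved other differences by over 1.5 times, to 0.26 and 0.94 for Klrc3 (without GPR15+ replicates 5 and 1), 0.23 for Ulbp1 and -0.16 for Hcst (GPR15- 1), 0.17 for Prf1 (GPR15- 6), and as far as -0.67 for Tyrobp, -0.30 for Runx3 and 0.91 for Clec2i (GPR15+ 1). Likeness to a receptor gene weakened under quantile normalization and loess for several nearest genes, for Slc7a14 from an RMS of 0.136 to 0.36 and 0.34 and for Tmem87a from 0.0613 to 0.278 and 0.254. The causes were not tested. Dim rows limit what can be seen for all 7 but Klrg1.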
